A study of Mus musculus with 34 samples.

Results

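The 40 genes described here encode proteins that copy DNA, drive the cell through its division cycle and separate its chromosomes. They were chosen by gene symbol, and all 40 were among the 14086 genes of a table of normalized counts from mouse liver RNA sequencing. Only 10 of them had a mean of at least 10 normalized counts over the 18 libraries of that table, and 30 lay below it. A second table, of z-scores, held 20 of the 40 among its 1659 genes. By role the 40 comprised Mki67 as the general proliferation marker, 6 subunits of the replicative helicase and 7 genes of DNA synthesis and nucleotide supply. There were also 4 genes for cyclins and the cyclin-dependent kinase (Ccna2, Ccnb1, Ccnb2 and Cdk1) and 5 mitotic kinases and checkpoint genes. A group of 3, called anaphase genes below, held Cdc20 and Ube2c, of anaphase ubiquitination, and Cdca3, a gene of mitotic entry. The rest were 2 non-kinase subunits of the chromosomal passenger complex, 9 spindle genes and 3 cytokinesis genes.

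The series asked what kinds of liver tumour arise in mice when CRISPR editing makes the cell skip an exon of the beta-catenin gene. Per the labels, hydrodynamic injection, a rapid tail vein injection of a large volume that carries plasmids mainly into hepatocytes, was used to model the cancer. Strand-specific libraries were prepared from total RNA of the frozen tumours. The same protocol text stands for every sample, wild type included. The labelled cell type is liver cells. The normalized counts covered 6 groups: wild type (2 libraries), β-catenin skip 1 isoform alone (3), β-catenin skip 2 isoform alone (2), β-catenin skip 1 isoform induced (5), β-catenin skip 2 isoform induced (2) and ΔN90-β-catenin induced (4), a truncated and thereby stabilised β-catenin. Below, the isoform groups are shortened to skip1 or skip2 with the word alone or induced, and the truncated form to dN90 induced. The z-scores used here were those of subtype A (4 libraries), subtype B (9) and a control named sgActin and YAPS127A (3). The control name stands for a guide RNA against actin together with an active form of the coactivator YAP. Z-scores of the 6 groups above were also given, as a block scaled apart, and were not used. What "induced" adds to "alone", the strain, sex and age of the mice, the promoters of the plasmids and the time after injection are not given in the sources used here. For the skip 2 samples one label field repeats skip 1, and the source label was used. Whether each library stands for an animal of its own is not stated, and p-values here cover the spread between these samples and nothing wider. In bulk tissue, fewer cells of a type and less RNA per cell cannot be told apart, and neither can more dividing cells and more RNA per dividing cell.

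Most hepatocytes of the adult liver rest outside the cell cycle and return to it after tissue loss or in tumours. In resting cells the DREAM complex holds off genes of DNA replication and genes of mitosis. Genes of DNA replication are switched on by E2F transcription factors as the cell leaves G1. Genes of mitosis are switched on later by B-Myb and FoxM1 together with the MuvB core. MuvB binds a promoter element known as the cell cycle genes homology region, or CHR, often a short distance from CCAAT boxes bound by NF-Y. Transcripts of both classes are scarce in resting tissue, and staining for Ki-67, the product of Mki67, is used to grade proliferation in tumours.

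The promoters were read because these 2 classes of gene share promoter elements. RefSeq promoters on GRCm38.p6, running from 250 bases before to 50 after the start of transcription, matched 35 of the 40 genes by symbol. For this purpose 3 motifs were searched on both strands: CHR in the form TTTGAA or the form TTCGAA, the CCAAT box, and E2F in the form TTCCCGC, the form TTCGCGC, the form TTGCCGC or the form TTGGCGC. Matches of 1 motif that overlap were each counted. A CHR match stood in 22 of 35 promoters (62.9%), against 19.2% of all 32851 promoters of the same length. An E2F match stood in 12 (34.3%, against 9.57%) and a CCAAT match in 30 (85.7%, against 37.4%). Over the 11107 genes of the count table with a promoter, 1 promoter each, the shares were 14.4% for CHR, 16.1% for E2F and 38.6% for CCAAT. Where a gene had several promoters, the 2 sets were not chosen alike. For the 40 it was the promoter nearest the 5′ end of the GENCODE gene, and for the 11107 the one of lowest coordinate. By role, with no test between roles, the 5 helicase promoters held E2F in 4 and CHR in 2, the 7 of DNA synthesis E2F in 3 and CHR in 1, and the 3 of cyclins and Cdk1 each motif in 2. The 7 spindle promoters held E2F in 1 and CHR in 5. All 4 promoters of mitotic kinases and checkpoint genes, all 3 of anaphase genes and all 3 of cytokinesis genes held a CHR match, with E2F in 0, 0 and 1 of them. These are matches of letters and not shown to be bound sites. The 5 promoters below were chosen to show a proliferation marker, a helicase subunit, a topoisomerase, the mitotic kinase and an anaphase activator. Each line gives 280 bases, from 250 before to 30 after the start, 5′ to 3′ in the direction of transcription. The strand shown is the minus strand in all 5. Capitals mark the matches, and in Mcm6 the capital runs of 10 letters are E2F matches on opposite strands that overlap.
Mki67: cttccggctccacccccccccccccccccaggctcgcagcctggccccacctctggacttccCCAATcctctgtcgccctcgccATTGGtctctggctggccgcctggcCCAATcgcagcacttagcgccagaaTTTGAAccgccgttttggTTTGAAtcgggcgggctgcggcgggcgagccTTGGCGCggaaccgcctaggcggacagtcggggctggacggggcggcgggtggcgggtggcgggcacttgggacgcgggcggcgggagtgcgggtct
Mcm6: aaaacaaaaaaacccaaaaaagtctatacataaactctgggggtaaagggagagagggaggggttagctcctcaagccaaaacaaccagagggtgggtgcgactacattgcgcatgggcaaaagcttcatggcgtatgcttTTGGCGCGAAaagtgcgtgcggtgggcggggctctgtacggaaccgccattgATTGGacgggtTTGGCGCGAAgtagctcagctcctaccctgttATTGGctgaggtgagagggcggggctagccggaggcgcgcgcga
Top2a: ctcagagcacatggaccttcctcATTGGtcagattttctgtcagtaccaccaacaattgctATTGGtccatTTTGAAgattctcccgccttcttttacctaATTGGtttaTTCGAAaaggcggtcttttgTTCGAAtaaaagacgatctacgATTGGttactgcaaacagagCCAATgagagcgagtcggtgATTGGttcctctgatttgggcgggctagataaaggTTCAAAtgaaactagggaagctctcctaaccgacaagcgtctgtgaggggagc
Cdk1: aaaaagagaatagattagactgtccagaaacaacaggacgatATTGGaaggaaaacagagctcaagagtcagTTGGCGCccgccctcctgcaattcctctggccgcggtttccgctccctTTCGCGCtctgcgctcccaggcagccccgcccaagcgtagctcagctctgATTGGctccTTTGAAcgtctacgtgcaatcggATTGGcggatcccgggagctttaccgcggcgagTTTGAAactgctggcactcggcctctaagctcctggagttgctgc
Cdc20: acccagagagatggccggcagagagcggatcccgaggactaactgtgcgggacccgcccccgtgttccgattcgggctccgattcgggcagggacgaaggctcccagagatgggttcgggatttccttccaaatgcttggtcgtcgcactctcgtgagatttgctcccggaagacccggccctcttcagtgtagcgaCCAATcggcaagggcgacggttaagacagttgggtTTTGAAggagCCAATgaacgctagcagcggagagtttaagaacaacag
The printed stretches lie at chr7:135716350-135716629 for Mki67, chr1:128359676-128359955 for Mcm6, chr11:99024160-99024439 for Top2a, chr10:69352883-69353162 for Cdk1 and chr4:118437314-118437593 for Cdc20. In the full promoter windows Mki67 held 2 CHR, 1 E2F and 3 CCAAT matches. Mcm6 held 5 E2F matches, 1 of which crosses the end of the printed stretch, 2 CCAAT and 0 CHR. Top2a held 4 CHR, 6 CCAAT and 0 E2F, Cdk1 held 2 CHR, 2 E2F and 3 CCAAT, and Cdc20 held 1 CHR, 2 CCAAT and 0 E2F.

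The libraries were shallow for genes at this level. Normalized counts summed to between 415528 and 694773 per library, and the reads behind them were estimated at 361772 to 933146, the skip2 induced libraries being the deepest at 933146 and 815419. 1 read was worth between 0.46 and 1.64 normalized counts, so single low values carry wide counting error. The tissue differed between groups as well. The summed level of 8 hepatocyte markers was 53000 to 71410 in the 7 libraries without the induced condition, 14340 to 47040 in skip1 induced, 27490 to 31110 in skip2 induced and 13970 to 18910 in dN90 induced libraries. The sum of 7 measured biliary markers was 9.88 to 38.2 without the induced condition and 162.1 to 801.5 with it, Krt19, Krt7, Sox9 and Epcam each being at 0 in every library of at least 1 group without it. The 10 macrophage markers summed to 237.7 to 364.3 without and 319 to 671.3 with the induced condition, the 9 endothelial markers to 320.1 to 393 and 198.5 to 388.2, and the 8 stellate and fibroblast markers to 149.2 to 237 and 118.3 to 437.9. Erythroid markers, 8 of which were measured, summed to 173.7 to 309.7 and 31.7 to 251.2. T and NK cell markers reached at most 10.2, B and plasma cell markers at most 11.7 and neutrophil markers at most 15.8 in any library, with all measured neutrophil markers at 0 in wild type. The part of these cell types in the results below was not tested.

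The induced livers held more RNA of the division cycle. The 40 genes summed to between 163 and 216.5 normalized counts in the 7 libraries without the induced condition and to between 336.4 and 732.1 in the 11 induced libraries, with no overlap. Each induced group was compared with livers lacking the induced condition by limma on log2(normalized count + 1), so a difference of 1 is a doubling only for well expressed genes and understates the change of low ones. For skip1 and skip2 the controls were the same isoform alone, and for dN90, which has no isoform of its own alone, they were all 7 livers without the induced condition, the skip1 alone and skip2 alone livers included. The comparisons thus share controls. Without a filter on low values, 21 of the 40 genes rose with skip1 and 0 fell at an adjusted p under 0.05, where 5.75% of all 14086 genes rose and 3.83% fell. With skip2, 12 rose and 1 fell (4.43% and 3.78% of all genes). With dN90, 26 rose and 0 fell (14.5% and 10.4% of all genes). The median difference of the 40 was 1.72, 1.46 and 1.44 in turn, against 0.13, 0.14 and 0.17 over all genes, and 39, 36 and 39 of the 40 differences were above 0, against 58.4%, 56.6% and 58.8% of all genes.

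**Figure D1:**
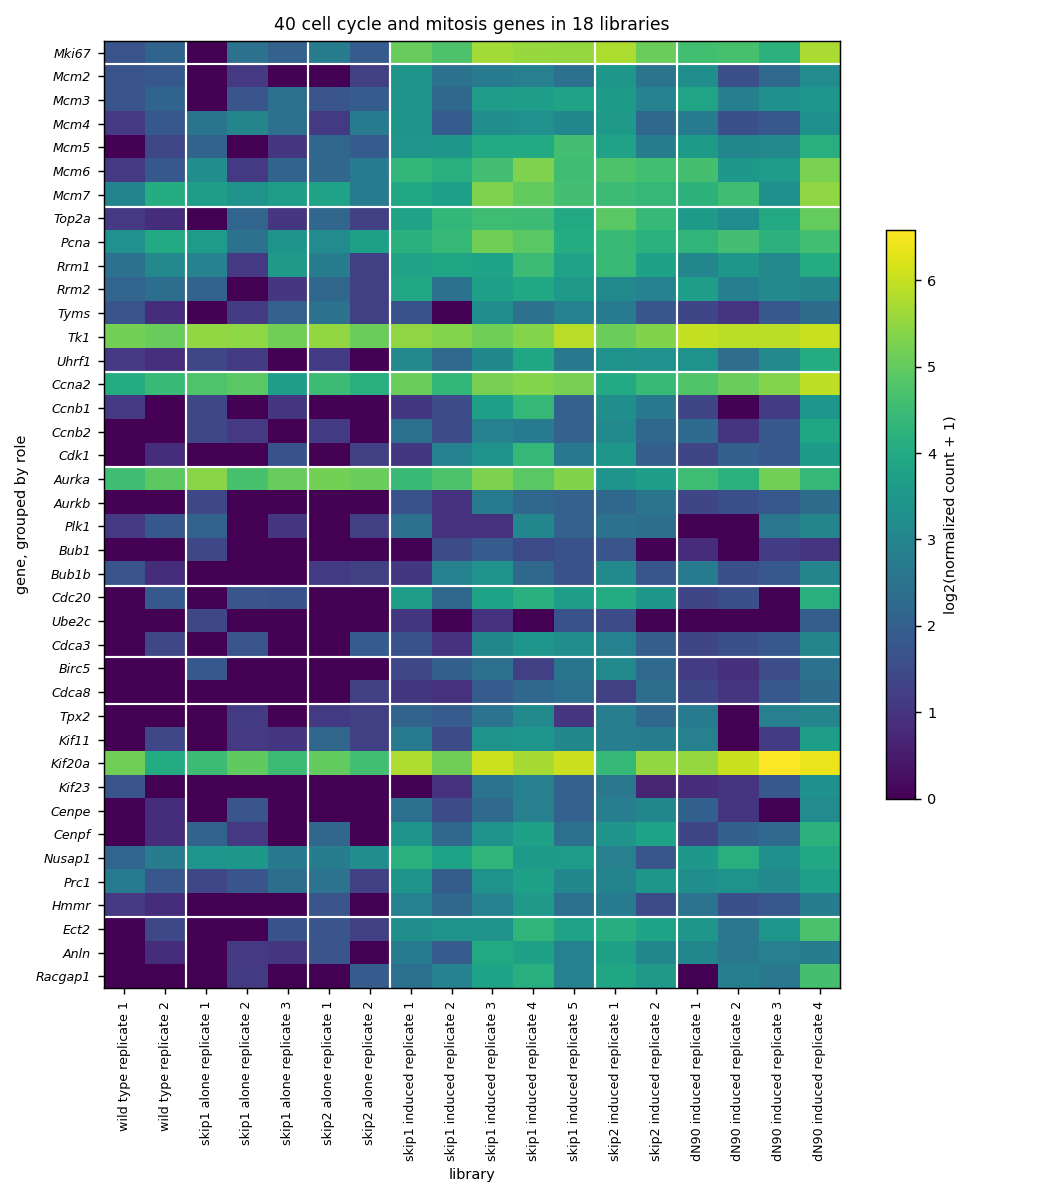
Log2(normalized count + 1) of the 40 genes (rows, grouped by role, white lines between roles) in the 18 libraries (columns, white lines between groups), dark for 0 and yellow for the highest level. The 7 libraries on the left, without the induced condition, are darker in most rows than the 11 induced libraries, while Tk1, Ccna2, Aurka and Kif20a are bright throughout.

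In 9 of the 40 genes (Mki67, Mcm5, Mcm6, Top2a, Pcna, Rrm2, Uhrf1, Ect2 and Anln) every one of the 11 induced libraries lay above every one of the 7 others, which held for 2.29% of all genes. None of the 40 lay lower in all 11, against 2.66% of all genes. Compared group by group, 22 of the 40 did not overlap with skip1 (7.91% of all genes higher), 30 with skip2 (31.3%), where only 2 libraries stood against 2, and 13 with dN90 (8.19%). Among the 10 genes with a mean of at least 10, which may have passed that filter through the induced groups and so are no independent support, limma called 6 with skip1, 5 with skip2 and 8 with dN90, against 14.7%, 14.9% and 37.5% of the 6592 genes kept. The skip2 count rested on few libraries. It fell from 13 to 1 of 40 (Mki67) without skip2 induced replicate 1, to 6 without skip2 induced replicate 2, to 6 and 3 without skip2 alone replicates 1 and 2, to 3 with depth as a covariate and to 0 with only the compared groups in the fit. That depth fit called 0 of the 10 members whose mean reached 10 for skip2. The dN90 count fell to 16 without dN90 induced replicate 4 and to 13 with wild type as the only control. Leaving out each library in turn, 11 of the 21 skip1 calls held every time (Anln, Bub1b, Ect2, Hmmr, Mcm2, Mcm5, Mcm6, Mki67, Racgap1, Rrm2 and Top2a), as did 16 of the 26 dN90 calls, and 1 of the 13 skip2 calls.

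**Figure D2:**
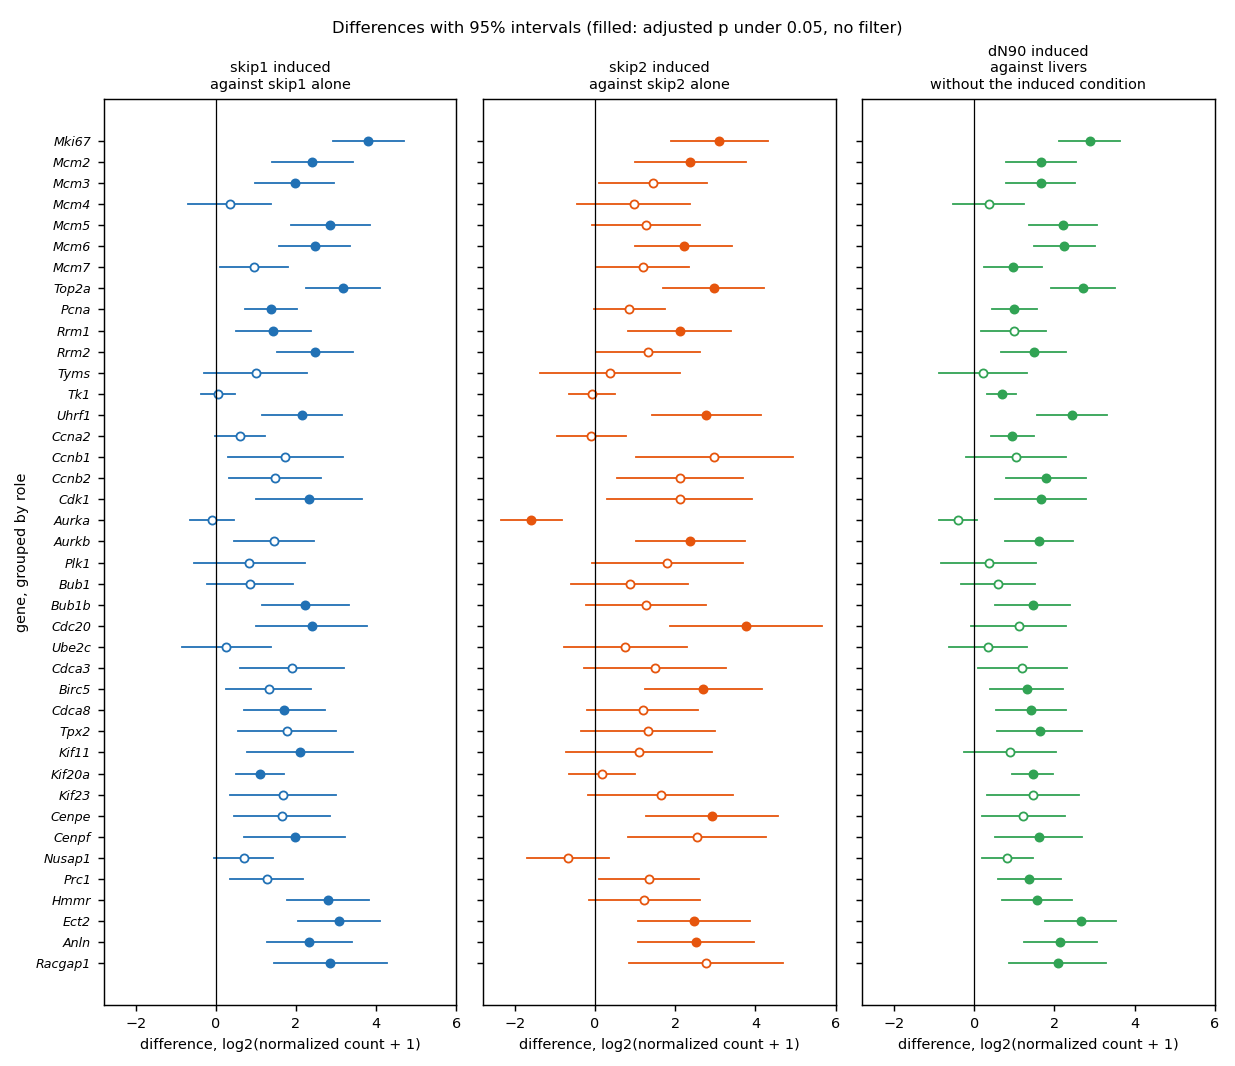
Difference in log2(normalized count + 1) with its 95% interval for each of the 40 genes (vertical axis) in the 3 comparisons of induced with control livers (panels), from the fit with no filter. Filled points passed an adjusted p of 0.05; only Aurka with skip2 does so to the left of 0.

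Mki67, which encodes the Ki-67 protein of dividing nuclei (chr7:135689784-135716361, mm10), showed the contrast most plainly. Its normalized count was 2.27 and 3.32 in wild type, 0, 4.6 and 3.20 in skip1 alone and 5.78 and 2.75 in skip2 alone. It was 32.3, 25.9, 50.15, 46.0 and 45.8 in skip1 induced, 53.3 and 33.4 in skip2 induced and 22.8, 24.5, 17.6 and 52.65 in dN90 induced libraries. The lowest induced value, in dN90 induced replicate 3, was about 3 times the highest value elsewhere, in skip2 alone replicate 1. Group means were 40 ± 10.4 (SD, n = 5) with skip1 induced against 2.60 ± 2.36 (n = 3) alone, 43.3 ± 14.1 (n = 2) with skip2 induced against 4.26 ± 2.15 (n = 2) alone, and 29.4 ± 15.8 (n = 4) with dN90. The differences were 3.80 (SE 0.45, limma adjusted p = 1.6e-05) for skip1, 3.10 (SE 0.62, adjusted p = 0.0018) for skip2 and 2.88 (SE 0.39, adjusted p = 6.5e-06) for dN90. For skip2 the call was lost with depth as a covariate (2.18).

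The replicative helicase, the MCM ring that opens DNA at origins and travels with the fork, rose in part of its subunits. Of 6 subunits, 4 rose with skip1 (Mcm2, Mcm3, Mcm5, Mcm6), 2 with skip2 (Mcm2, Mcm6) and 5 with dN90 (all but Mcm4). The 6 summed to between 13.6 and 28.4 normalized counts without the induced condition and to between 42.8 and 124.8 with it. Mcm6 (chr1:128331590-128359664) was at 1.15 and 2.52 in wild type, 8.32, 1.16 and 3.23 in skip1 alone and 3.51 and 5.56 in skip2 alone. It was at 19.6, 16.8, 23.5, 38.3 and 22.6 in skip1 induced, 25.6 and 22.9 in skip2 induced and 23.9, 10.3, 11.4 and 37.2 in dN90 induced libraries. All induced libraries were higher than all others, with dN90 induced replicates 2 and 3 nearest to them. Its differences were 2.46 (SE 0.45, limma adjusted p = 0.00095), 2.21 (SE 0.61, adjusted p = 0.018) and 2.24 (SE 0.39, adjusted p = 0.00011) for skip1, skip2 and dN90, and the skip2 call was lost without skip2 induced replicate 1 (2.14), skip2 induced replicate 2 (2.29) or skip2 alone replicate 1 (1.94), with depth as a covariate (2.37) or with quantile normalization (1.85). Mcm5 ranged from 0 to 3.47 without the induced condition and from 5.96 to 23.4 with it, and differed by 2.86 with skip1 (limma adjusted p = 0.00032) and 2.20 with dN90 (adjusted p = 0.00022). Mcm2 differed by 2.41, 2.38 and 1.66, and Mcm3 by 1.97 with skip1 and 1.66 with dN90. Mcm7, at 5.52 to 15.9 and 8.82 to 43.9, passed with dN90 alone of the 3 comparisons (0.96, limma adjusted p = 0.047), and that call was lost without dN90 induced replicate 4 (0.60), among others. Mcm4 passed in none and stood at 1.13 to 6.90 without and 2.04 to 10.6 with the induced condition.

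Genes of DNA synthesis and nucleotide supply also rose, with 5, 3 and 5 of 7 called higher with skip1, skip2 and dN90. Their sum was 51.2 to 71.1 normalized counts without the induced condition and 102.2 to 161.7 with it. Top2a, the topoisomerase that untangles replicated chromosomes (chr11:98992943-99024189), was at 1.13 and 0.83 in wild type, 0, 3.45 and 1.07 in skip1 alone and 3.47 and 1.37 in skip2 alone. It was at 12.9, 19.4, 22.3, 21.7 and 14.9 in skip1 induced, 29.0 and 20.2 in skip2 induced and 11, 8.16, 15.1 and 31.8 in dN90 induced libraries, all of them above every other library. The differences were 3.17 (SE 0.48, limma adjusted p = 0.00018), 2.95 (SE 0.65, adjusted p = 0.004) and 2.70 (SE 0.41, adjusted p = 2.8e-05), the skip2 call being lost without skip2 induced replicate 1 (2.71) or skip2 alone replicate 2 (2.50) or with depth as a covariate (2.38). Pcna, the sliding clamp of DNA polymerases (chr2:132249162-132253314), was at 4.6 to 15 without the induced condition and at 16 to 34.4 with it. It differed by 1.37 with skip1 (limma adjusted p = 0.0046) and 0.99 with dN90 (adjusted p = 0.0055), and by 0.85 with skip2 (adjusted p = 0.19). Pcna-ps1 and Pcna-ps2 are processed copies of the gene, and reads shared with them cannot be told apart here.

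Both subunits of ribonucleotide reductase, which makes the deoxynucleotides, were measured. Rrm1 rose with skip2 (2.11, limma adjusted p = 0.033) and with skip1 (1.43, adjusted p = 0.047), although the skip1 call was lost when any library but skip1 alone replicate 3 was left out, the difference being 0.73 without skip1 alone replicate 2. The skip2 call was lost without skip2 induced replicate 1 (1.75), skip2 induced replicate 2 (2.47) or skip2 alone replicate 2 (1.35), and the dN90 difference of 0.98 was not called (adjusted p = 0.066). Rrm2 stood at 0 to 4.16 without the induced condition and 4.62 to 14.4 with it, and rose with skip1 (2.47, limma adjusted p = 0.00089) and dN90 (1.48, adjusted p = 0.0069). Uhrf1, which keeps DNA methylation through replication, rose in all 3 comparisons (2.15, 2.78 and 2.44), from 0 to 1.65 up to 3.71 to 15.9. Tyms, which makes thymidylate, passed in none and ranged from 0 to 8.36 over all libraries.

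Tk1, the thymidine salvage kinase, did not follow the others. It was at 32.0 to 44.9 in the 7 libraries without the induced condition, at 33.8 to 57.1 in skip1 induced, and at 33.5 and 39.2 in skip2 induced libraries. In dN90 induced libraries it was at 62.0, 58.4, 58.4 and 64.3, above every other library. It rose with dN90 (0.68, SE 0.17, limma adjusted p = 0.003), and differed by 0.06 (95% interval -0.34 to 0.46) with skip1 and by -0.08 with skip2.

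**Figure D3:**
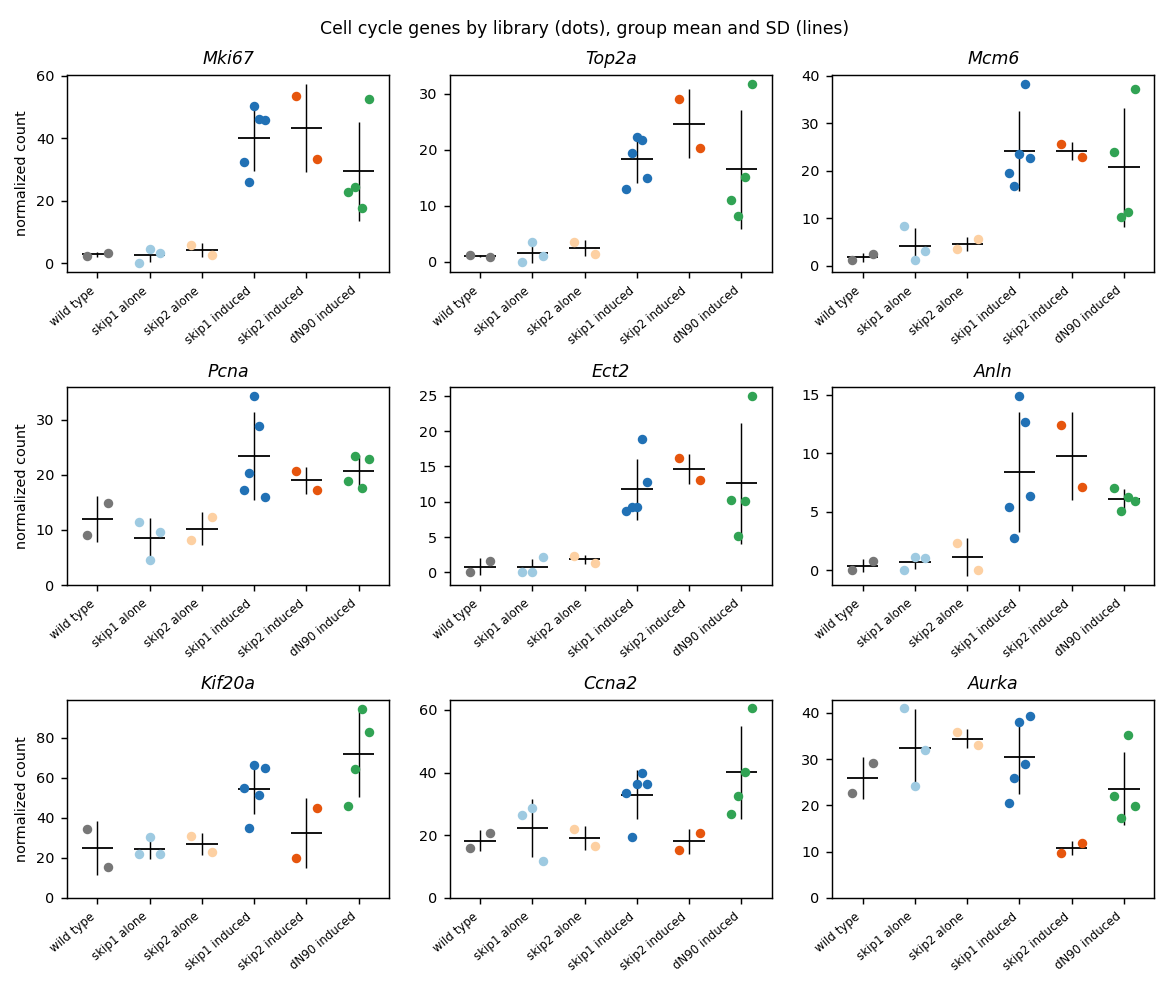
Normalized counts of 9 genes (panels) in the 6 groups, 1 dot per library, with the group mean as a horizontal line and the SD as a vertical line. In the upper 6 panels the induced libraries lie above the others, whereas Aurka is lowest in skip2 induced, at 9.65 and 11.9, and Ccna2 and Kif20a overlap the controls there.

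Cyclins and their kinase were uneven. Cdk1, the kinase that starts mitosis (chr10:69335146-69352938), was at 0 to 2.13 without the induced condition. It was at 1.08, 6.47, 9.29, 19.9 and 5.32 in skip1 induced, 10.1 and 2.98 in skip2 induced and 1.57, 3.06, 2.51 and 10.9 in dN90 induced libraries. Skip1 induced replicate 1 and dN90 induced replicate 1 lay within the range of the controls. Cdk1 rose with skip1 (2.32, limma adjusted p = 0.021) and dN90 (1.66, adjusted p = 0.029). Its partner cyclin Ccnb1 was at most 1.64 without the induced condition and reached 12.1 (replicate 3) and 19.9 (replicate 4) with skip1 induced, 8.73 and 5.36 in skip2 induced and 9.93 in dN90 induced replicate 4. It was at or below 3.19 in the other 6 induced libraries, and none of its differences was called (1.73, 2.98 and 1.04). Ccnb2 was called with dN90 (1.79, limma adjusted p = 0.0071). Ccnb1-ps and Ccnb2-ps are processed copies, and reads shared with them cannot be told apart.

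Ccna2, the cyclin of S phase and early mitosis (chr3:36564865-36572150), was at 15.9 and 20.8 in wild type, 26.3, 28.8 and 11.7 in skip1 alone and 22 and 16.5 in skip2 alone. It was at 33.4, 19.4, 36.2, 39.7 and 36.2 in skip1 induced, 15.2 and 20.9 in skip2 induced and 26.7, 32.6, 40.1 and 60.6 in dN90 induced libraries. The skip2 induced values thus lay among those of the controls. It rose with dN90 (0.95, limma adjusted p = 0.0075; lost with depth as a covariate, 0.65), and differed by 0.60 (95% interval -0.04 to 1.24) with skip1 and -0.09 with skip2. Exons of Ccna2 share 510 bases, 12.5% of its exon bases, with Exosc9, an exosome gene on the opposite strand, whose mean was 9.65 without and 39.8 with the induced condition. Whether the authors counted by strand is not given in the sources used here, so the part of Exosc9 in these values was not tested. Exons of Ube2c (22.8% of its bases, with Tnnc2), Plk1 (7.09%, with Gm44985) and Cdca8 (4.48%) also met a gene on the opposite strand. So did those of Mcm7 (7.25%, with Ap4m1, and 1.45%, with Cops6), Nusap1 (4.24%, with Oip5), Cdc20 (2.84%, with Elovl1) and Tk1 (1.6%, with Afmid).

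Of 5 mitotic kinases and checkpoint genes, 1 rose with skip1 (Bub1b), 1 rose and 1 fell with skip2 (Aurkb and Aurka) and 2 rose with dN90 (Aurkb and Bub1b). Bub1b, a spindle checkpoint kinase, was listed at 0 in all 3 skip1 alone libraries and at 1.08 to 9.29 in skip1 induced (limma adjusted p = 0.0071). Aurkb, the kinase of the chromosomal passenger complex, was at 0 in 6 of the 7 libraries without the induced condition and at 0.925 to 5.57 with it. Plk1, the polo kinase of mitotic entry, and Bub1, which recruits checkpoint proteins to kinetochores, passed in none and reached at most 7.22 and 2.79.

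Aurka, the centrosomal kinase that helps build the spindle (chr2:172356190-172370535), went the other way. It was at 22.6 and 29.1 in wild type, 41.1, 24.2 and 32.0 in skip1 alone, 35.8 and 33.0 in skip2 alone, 20.4, 25.9, 38.1, 28.9 and 39.4 in skip1 induced, and 22, 17.3, 35.1 and 19.9 in dN90 induced libraries. In skip2 induced libraries it was at 9.65 and 11.9, below every other library. It fell with skip2 by 1.59 (SE 0.36, 95% interval -2.34 to -0.85, limma adjusted p = 0.0044) and was the 1 of 40 genes lower in both skip2 induced than in both skip2 alone libraries (22.1% of all genes). That call was lost without skip2 induced replicate 1 (-1.45, adjusted p = 0.061), with depth as a covariate (-1.21, adjusted p = 0.077) and with voom (-1.02), the adjusted p running from 0.0022 to 0.077 over the alternatives. It differed by -0.09 (95% interval -0.63 to 0.45) with skip1 and -0.40 (-0.87 to 0.07) with dN90. No exon of another gene was found to overlap its exons.

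Cdc20, Ube2c and Cdca3 were nearly silent in livers without the induced condition. Cdc20, the activator of the anaphase-promoting complex (chr4:118432901-118437352), was at 0 and 2.49 in wild type, 0, 2.30 and 2.13 in skip1 alone and 0 in both skip2 alone libraries. It was at 11.8, 3.70, 13, 17.1 and 11.7 in skip1 induced, 15.6 and 10.1 in skip2 induced and 1.57, 2.04, 0 and 16.9 in dN90 induced libraries. All skip1 and skip2 induced libraries lay above all controls, while 3 of the 4 dN90 induced libraries lay among them. It rose with skip1 (2.39, limma adjusted p = 0.023) and with skip2 (adjusted p = 0.0096, against a group listed at 0), and not with dN90 (1.11, 95% interval -0.08 to 2.30). The conjugating enzyme gene Ube2c and Cdca3, a gene of mitotic entry, passed in none. Both members in the role of chromosomal passenger complex subunits, Aurkb being counted with the kinases, rose with dN90; the complex corrects faulty chromosome attachments. They were Birc5, encoding survivin, with 1.31 (limma adjusted p = 0.033) and Cdca8, encoding borealin, with 1.42 (adjusted p = 0.015). Birc5 ranged from 0.835 to 4.554 in dN90 induced libraries, and only replicate 4 lay above the 2.512 of skip1 alone replicate 1. Cdca8 ranged from 1.02 to 3.974 there, against at most 1.373 without the induced condition. Both dN90 calls were lost without dN90 induced replicate 4, among others. Cdca8 also rose with skip1 (adjusted p = 0.026, alone listed at 0) and Birc5 with skip2 (adjusted p = 0.016, alone listed at 0).

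Of 9 spindle genes, 4 rose with skip1 (Kif11, Kif20a, Cenpf and Hmmr), 1 with skip2 (Cenpe) and 5 with dN90 (Tpx2, Kif20a, Cenpf, Prc1 and Hmmr). Kif11, the motor that pushes the poles apart, ranged from 1.85 to 9.93 in skip1 induced and from 0 to 1.15 in skip1 alone libraries (2.10, limma adjusted p = 0.038). The Kif11 call was lost when any library but skip1 induced replicate 2 was left out, and with quantile normalization. Hmmr, a hyaluronan receptor that binds spindle microtubules, was listed at 0 in skip1 alone and at 3.70 to 10.8 in skip1 induced libraries (adjusted p = 0.00052). Cenpf, a kinetochore protein, rose by 1.97 with skip1 (limma adjusted p = 0.041) and 1.61 with dN90 (adjusted p = 0.027). It was at 1.57, 3.06, 3.76 and 17.9 in dN90 induced libraries, against 0 to 3.47 without the induced condition. The dN90 call of Cenpf was lost without dN90 induced replicate 4, among others. Its skip1 call was lost without skip1 alone replicate 2 or 3, or skip1 induced replicate 1, 3 or 4. Cenpe, a kinetochore motor at 0 in both skip2 alone libraries, was at 5.98 and 7.15 in skip2 induced (limma adjusted p = 0.021). Prc1, which bundles microtubules of the central spindle, rose with dN90 (1.37, limma adjusted p = 0.0093). Prc1 shares 11.1% of its exon bases with Rccd1 on the opposite strand, whose mean was 0.961 without and 1.2 with the induced condition. Kif23, a motor of the central spindle, passed in none.

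Kif20a, a motor of late mitosis, was at 34.6 and 15.6 in wild type, 21.8, 30.5 and 21.7 in skip1 alone and 30.8 and 23.1 in skip2 alone. It was at 54.8, 34.7, 66.2, 51.5 and 65.0 in skip1 induced, 20.1 and 44.7 in skip2 induced and 45.8, 64.5, 94.5 and 83.0 in dN90 induced libraries. It rose with skip1 (1.09, SE 0.30, limma adjusted p = 0.019) and dN90 (1.45, SE 0.26, adjusted p = 0.00019) and differed by 0.17 with skip2, and the skip1 call was lost without skip1 alone replicate 1 or 3 (both 1.02). Its exons share 1271 bases, 29.3% of them, with Cdc23, an anaphase-promoting complex subunit on the opposite strand. Cdc23 had a mean of 8.95 without and 53.1 with the induced condition, and its part in the Kif20a values was not tested.

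The sum of the cytokinesis genes was 0 to 4.63 normalized counts without the induced condition and 16.4 to 54.8 with it, and 3, 2 and 3 of 3 were called higher with skip1, skip2 and dN90. Ect2, the exchange factor that sets the cleavage furrow (chr3:27097222-27153878), was at 0 and 1.67 in wild type, 0, 0 and 2.14 in skip1 alone and 2.32 and 1.38 in skip2 alone. It was at 8.63, 9.19, 9.31, 18.8 and 12.8 in skip1 induced, 16.1 and 13.1 in skip2 induced and 10.2, 5.12, 10.1 and 24.9 in dN90 induced libraries, all above every control. The differences were 3.07 (limma adjusted p = 0.00021), 2.47 (adjusted p = 0.021) and 2.65 (adjusted p = 3.3e-05). Anln, the anillin scaffold of the contractile ring (chr9:22332012-22389188), ranged from 0 to 2.31 without and from 2.77 to 14.9 with the induced condition, and differed by 2.33, 2.52 and 2.15. Each skip2 call of Ect2 and Anln was lost when skip2 induced replicate 1, skip2 induced replicate 2 or skip2 alone replicate 2 was left out. Racgap1, the partner of Ect2 at the central spindle, rose with skip1 (2.86, limma adjusted p = 0.0075) and dN90 (2.08, adjusted p = 0.01), and was at 0 in dN90 induced replicate 1 and at 24 in replicate 4. Cdc20, Cdk1, Ccnb1, Cenpf, Racgap1, Pcna, Ect2, Anln and Tk1 were singled out for their values after these were seen.

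Few differences between the induced groups passed the test. Between skip1 and skip2 induced, 2 of the 40 were called, both higher with skip1 (1.5% of all genes called; 1 of the 10 with a mean of at least 10, against 3.53%). These were Aurka, with a difference of 1.39 (SE 0.30, 95% interval 0.77 to 2.01, limma adjusted p = 0.013), and Nusap1, a microtubule bundling gene, with 1.59 (95% interval 0.74 to 2.44, adjusted p = 0.046). Nusap1 was at 17.3, 13, 18.7, 10.9 and 11.4 in skip1 induced and 6.25 and 2.40 in skip2 induced libraries, against 3.42 to 10.4 without the induced condition and 8.83 to 16.8 with dN90. Only these 2 genes did not overlap between skip1 and skip2 induced (7.77% of all genes higher). The Aurka call was lost without skip2 induced replicate 1 (1.25, adjusted p = 0.41, range over alternatives 0.0077 to 0.62), and the Nusap1 call was lost when any 1 of the 7 libraries was left out. The intervals of most other genes were wide: Mki67 differed by -0.12 (-1.19 to 0.96), Top2a by -0.42 (-1.56 to 0.72) and Mcm6 by -0.06 (-1.12 to 1.01). A direct test asked whether the change from alone to induced differed between skip1 and skip2. It called 0 of 40 and 0 of 10 genes with limma (0.0923% and 0.167% of all genes) and 0 with voom. At an unadjusted p under 0.05 there were 2 of 40, against 8.09% of all genes. These were Aurka (1.5, 95% interval 0.58 to 2.42, limma adjusted p = 0.23) and Nusap1.

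Against dN90 induced, limma called 0 of 40 genes for skip1 induced and 0 of 40 for skip2 induced (2.4% and 1.19% of all genes), and 0 of 10 in both (4.63% and 3.03%). At an unadjusted p under 0.05 there were 2 of 40 for skip1 and 6 of 40 for skip2, against 12.4% and 8.41% of all genes. Voom called 0 of 40 in both and, among the 10, Tk1 for skip2. For skip1 the Mki67 difference was 0.52 (-0.35 to 1.38) and the Top2a difference 0.28 (-0.63 to 1.19). Tk1 was the 1 gene lower in all skip1 induced than in all dN90 induced libraries (2.85% of all genes; -0.51, 95% interval -0.88 to -0.14, limma adjusted p = 0.12). Cdc20 differed by 1.73 (0.47 to 3.0, adjusted p = 0.18) and was called only when dN90 induced replicate 4 was left out. For skip2, 5 genes were lower in both skip2 induced libraries than in all dN90 induced ones (8.89% of all genes): Tk1 (-0.73, -1.21 to -0.25), Ccna2 (-1.06, -1.82 to -0.30), Aurka (-1.02, -1.66 to -0.37), Kif20a (-1.18, -1.93 to -0.43) and Nusap1 (-1.40, -2.28 to -0.52). Anln alone was higher in both (8.75% of all genes). None of these 6 passed the adjusted limma test, except that Kif20a did without skip2 induced replicate 2 or dN90 induced replicate 1, Aurka with array weights and Tk1, as said, with voom. The width of the intervals does not show that the groups act alike.

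No difference between either isoform alone and wild type passed the test. With limma 0 of 40 and 0 of 10 were called for skip1 alone (0.0% of all genes in both fits), and 0 of 40 and 0 of 10 for skip2 alone (0.0142% and 0.0152%). At an unadjusted p under 0.05, 2 of 40 were lower with skip1 alone (Mcm2 and Rrm2; 4.61% of all genes at that p) and 0 with skip2 alone (5.47%), and voom called 0 in both. Mki67 differed by -0.39 (95% interval -1.56 to 0.78) with skip1 alone and 0.42 (-0.86 to 1.71) with skip2 alone, intervals that leave room for changes of about 1 unit either way.

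The spread within groups was itself patterned. Among dN90 induced libraries, replicate 4 was the highest in 31 of the 40 genes, where it was the highest in 25.7% of all genes. Its 40 genes summed to 732.1 normalized counts, against 364.3 to 424.8 in the other 3. By role, the 3 anaphase genes summed to 26.8 against 2.51 to 4.08, the cytokinesis genes to 54.8 against 16.4 to 21.4, the 2 passenger complex genes to 8.53 against 1.86 to 4.43, and the 3 cyclins with Cdk1 to 95.4 against 33.8 to 46.4. The helicase summed to 124.8 against 42.8 to 80.6, the spindle genes to 168.6 against 86.9 to 127.2, and the DNA synthesis genes to 161.7 against 111.4 to 121.8. In these 7 roles replicate 4 thus lay above the other 3 libraries. The kinases and checkpoint genes summed to 38.7 against 21.4 to 46.4, a sum made up largely of Aurka, while replicate 4 was the highest of the 4 for Aurkb (3.97), Plk1 (6.95) and Bub1b (6.95). The same library had the highest biliary marker sum of all, 801.5, a difference whose part was not tested. Without it 16 of 40 genes were called with dN90 (Anln, Aurkb, Ect2, Hmmr, Kif20a, Mcm2, Mcm3, Mcm5, Mcm6, Mki67, Pcna, Prc1, Rrm2, Tk1, Top2a and Uhrf1).

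**Figure D4:**
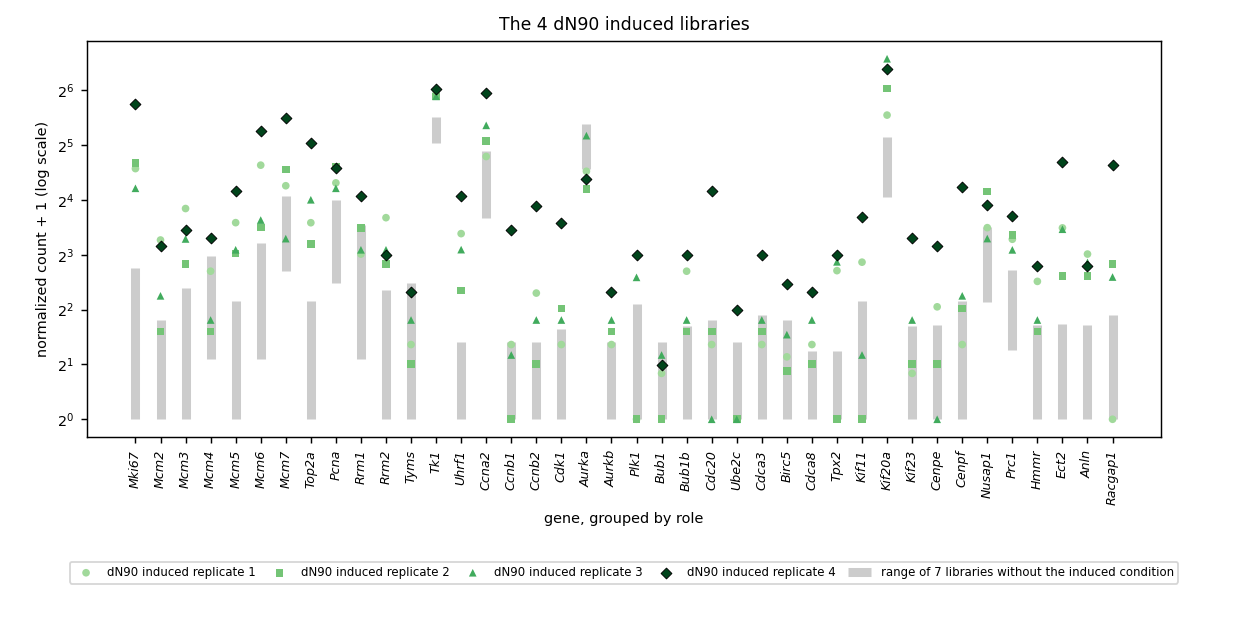
Normalized count + 1 on a log scale for the 40 genes (horizontal axis, by role) in the 4 dN90 induced libraries (symbols), with the range of the 7 libraries without the induced condition as a grey bar. Replicate 4 (dark diamonds) stands above the other 3 at Ccnb1, Cdk1, Cdc20, Cenpf and Racgap1, but not at Aurka, Rrm2 or Kif20a.

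In skip1 induced, replicates 1 and 2 were the highest in 2 and 0 of the 40 genes (17.3% and 19.5% of all genes), and replicate 2 had the lowest sum of the 40, 336.4. These 2 libraries also lay nearest to the controls on the first principal component of the 6592 genes with a mean of at least 10. They stood at 4.81 and -7.48, against 14.3 to 24.7 in the other 3 and -45.0 to -36.2 in livers without the induced condition. Replicate 2 held the most hepatocyte RNA of the group (47040). Of the skip2 induced libraries, replicate 1 was the higher in 31 of the 40 genes (47.8% of all genes).

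The cell cycle genes outside the 40 were read from lists of known members, chosen with earlier results of these data known. Each count below stands against a share of all genes called higher of 5.75% with skip1, 4.43% with skip2 and 14.5% with dN90, and a count near that share is no result about its list. Without a filter, limma called 3, 2 and 5 of 20 genes of G1 and S phase entry higher with skip1, skip2 and dN90. Ccnd1, cyclin D1, which carries cells out of G1, rose in all 3 comparisons (1.78, 2.70 and 2.42), from group means of 23.3 to 26.1 without the induced condition to 89.6 with skip1, 178.6 with skip2 and 151.7 with dN90. Cdk4, its kinase, rose with skip1 (0.84) and skip2 (1.54). Of 19 brakes on the cycle 3, 1 and 5 rose, among them Cdkn1a, encoding the p21 inhibitor, in all 3 comparisons (3.51, 3.17 and 2.65). A gene that stops the cycle thus rose beside those that drive it. Of 36 genes of replication origin and fork 4, 3 and 5 rose. Lig1, the ligase of Okazaki fragments, rose in all 3 (2.82, 3.40 and 2.85), while Mcm10, a replication initiation factor, fell with skip2 (-2.19) and dN90 (-4.09), the only fall in that list, and differed by -1.39 with skip1 (limma adjusted p = 0.080). Of 17 kinetochore and spindle checkpoint genes 3, 2 and 1 rose, and of 16 condensin, cohesin and separase genes 3, 1 and 3 rose and 1 fell in each comparison. The condensin gene Ncapd2 rose in all 3 (1.93, 2.18 and 1.85). Of 24 other mitotic motors and spindle proteins 11, 3 and 8 rose, among them Stmn1, which destabilises microtubules, with skip1 (2.05) and dN90 (1.49). In the list of 8 MuvB, B-Myb and FoxM1 genes 1 rose in each comparison. It was Foxm1, the activator of mitotic genes, which rose with skip1 (1.91, limma adjusted p = 0.042) and dN90 (1.55, adjusted p = 0.028), and with skip2 from 0 in both libraries to 7.74 and 7.82 (adjusted p = 0.016). Mybl2, encoding B-Myb, was not called.

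In the z-score table each gene is centred and scaled over its libraries, and the authors' name for the table says that it holds differential genes. The 20 listed members were lowest in the sgActin and YAPS127A control. With limma all 20 were higher in subtype A and in subtype B than in the control, where 41.7% and 44.1% of the 1659 genes were called higher. Since 97.3% and 99.6% of this selected table were called in either direction, nothing is read from these calls. Mki67 was at z-scores of -1.90, -1.89 and -1.92 in the control, -0.54, 0.36, 0.07 and 0.18 in subtype A and 0.07 (lowest), 0.53 (median) and 1.23 (highest) in subtype B. Top2a was at -1.86, -1.85 and -1.86 in the control, -0.64, 0.34, -0.03 and 0.16 in subtype A and -0.12, 0.55 and 1.36 in subtype B. Both subtypes lay above the control in every library, and overlapped each other. In subtype A both genes were lower than in subtype B, Mki67 by 0.58 SD units (95% interval -1.03 to -0.12, limma adjusted p = 0.030) and Top2a by 0.63 (-1.14 to -0.12, adjusted p = 0.034), 2 of 20 members against 20.9% of the table called lower. The mean of subtype A lay below that of subtype B in 20 of 20 members, and in 40.2% of the table. At an unadjusted p under 0.05 there were 6 of 20, against 66.7% of the table in either direction. The 2 adjusted calls rested on single libraries. Of them 0 remained without subtype A replicate 1 or 3, and 1 without subtype B replicate 7 or 8. There were 7 calls without subtype B replicate 1 and 5 without replicate 2.

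Subtype A replicate 1 was the lowest of its group in 19 of 20 members, against 24.1% of the table, and the highest values of subtype B fell to replicate 9 in 14 members and replicate 7 in 6. The members were then split by role after their values were seen, into 7 of replication and 11 of mitosis, leaving out Mki67 and Top2a. Subtype B replicate 8 stood at 0.03 on average in the replication genes, within -0.20 to 0.38, and at 0.95 in the mitosis genes, within 0.61 to 1.22. Subtype B replicates 7 and 9 were high in both, at 1.27 and 0.91 and at 0.95 and 1.38, in the order replication and mitosis. The control libraries were at -1.79 to -1.73 and -1.89 to -1.86.

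**Figure D5:**
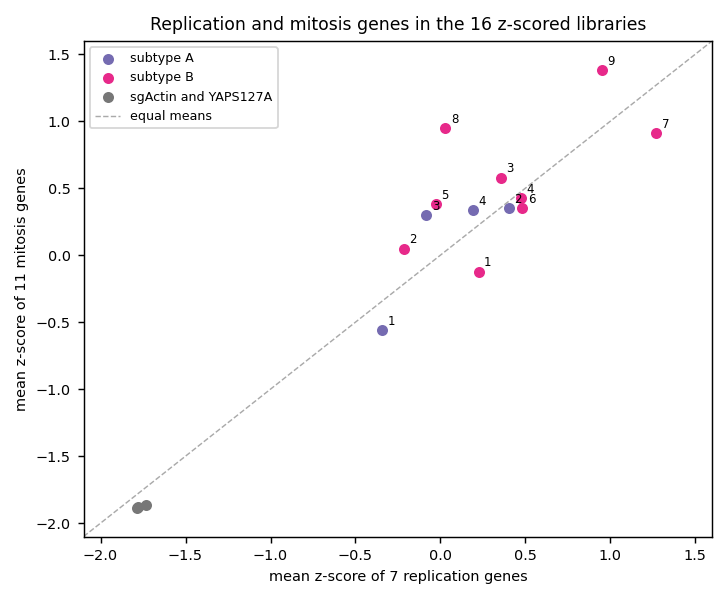
Mean z-score of 7 replication genes (horizontal axis) against that of 11 mitosis genes (vertical axis), in SD units of each gene, for each of the 16 z-scored libraries by group, with replicate numbers beside the subtype points and a dashed line of equal means. Control libraries sit at the lower left, subtype B replicates 7 and 9 at the upper right, and replicate 8 farthest above the line.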

How the data were processed

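Total RNA libraries of mouse liver were sequenced by the authors, who per the submitters' processing notes used FastQC, STAR, RSEM and DESeq2 on the mm10 build; versions, settings and the strand setting of counting are not given in the sources used here. The deposited values of the first table are normalized counts, used here as a signal per gene for 14086 genes in 18 libraries. About 60% of them (59.3% to 60.5% per library) were whole multiples of 1 step within 0.001, so reads were estimated from the step only for depth and for an alternative. The second deposited table holds a z-score per gene, scaled by the authors in 2 blocks, of which the block of 16 subtype and control libraries was used. This score is in SD units of a gene, as deposited. The depth behind it is unknown.

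For the tests on log2(value + 1), limma 3.58.1 (R 4.3.3) was run over all genes, with 1 coefficient per group over the 18 libraries, a trended prior, two-sided tests, Benjamini-Hochberg adjustment and calls at an adjusted p under 0.05. Values of the 10 genes with a mean of at least 10 come from the fit of 6592 genes above that mean, and values of the other 30 and the counts of 40 from the fit with no filter. Z-scores were tested with limma without a trend. The fit was also run on simulated data with known changes. Tables were handled in python 3.11.15 with pandas 2.3.3, numpy 2.4.6 and scipy 1.17.1.

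Every gene of the set was accounted for; full values go to Mki67, Top2a, the member of each role with the largest skip1 difference among those with a mean of at least 10, and members called between induced groups. The members and all lists were chosen with earlier results of these data known. Alternatives were other pseudocounts (0.5, 5), a mean of at least 50, no filter, quantile or upper-quartile scaling, only the compared groups, array weights, voom on estimated reads, depth as a covariate, wild type as the only control, rescaled z-scores and leaving out libraries. Positions are from GENCODE on mm10, where 98.3% of symbols matched.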

Additional observations from a re-analysis of the deposited data

Results flagged for a closer look

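In groups of 4 to 10 libraries, a single library can lie far from the rest of its group by Dixon's criterion. Chance meets this criterion in about 1 of 20 groups of normally distributed values, which low counts are not. Among the 40 genes it was met by 5 in dN90 induced and 1 in skip1 induced libraries, and among the 20 z-scored genes by 4 in subtype A and 0 in subtype B. In dN90 induced, the library was replicate 4 each time, with normalized counts of 9.934 for the mitotic cyclin gene Ccnb1, 10.93 for its kinase Cdk1, 16.89 for the anaphase activator Cdc20, 2.98 for the ubiquitin-conjugating enzyme gene Ube2c and 17.88 for the kinetochore gene Cenpf, all above its group. For Ube2c the rest of the group was at 0, so any single value above 0 would meet the criterion, and nothing is read from it. In skip1 induced, replicate 4 held 21.66 normalized counts of Rrm1, a ribonucleotide reductase subunit, above the other 4 libraries. In subtype A, replicate 1 lay below its group each time, with z-scores of -0.4711 for Ccnb2, -0.4718 for Cdk1, -0.6554 for the spindle gene Prc1 and -0.6433 for Hmmr.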

How the results depend on the processing

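Of 134 gene results under 2105 alternatives, 1879 kept direction and call, 196 kept direction and lost the call, 10 gained it and 20 reversed. The reversals all fell in 10 results that were not called, and 0 of 104 called results reversed. The tally includes each subtype against the control, where all 20 members were called in every setting. Most of that selected table was called there too, so those results say nothing about stability. No paired analysis was possible because replicate numbers follow the order of accession, with no shared number in the labels. A mean of at least 50 left no member to test. Where a group kept 1 library, that library is assumed to vary like the other groups. Depth limits genes below 10 normalized counts, and the cause of the changes below was not tested.

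Among the 10 genes with a mean of at least 10, the skip1 count of 6 became 21 of 40 with no filter. The skip2 count of 5 became 13 with no filter, 3 with quantile normalization, 0 with depth as a covariate and 1 to 4 leaving out libraries. The dN90 count of 8 became 26. Over all 40, the skip2 count of 13 became 8 with quantile normalization, 0 with only the compared groups, 3 with depth and 1 to 6 leaving out libraries, and the dN90 count of 26 became 13 with wild type as the only control and 16 to 27 leaving out libraries. Skip1 against skip2 induced went from 1 of 10 to 2 with no filter, 0 with depth and 0 to 1 leaving out libraries. Its 2 of 40 became 1 with a pseudocount of 5, upper-quartile scaling or skip1 induced replicates 1 and 2 left out together, 0 with only the compared groups or depth, and 0 to 1 leaving out libraries. Against dN90, leaving out libraries gave 0 to 1 of 40 for skip1 and 0 to 1 of 10 and of 40 for skip2, where array weights gave 1 in both and voom 1 of 10. Subtype A against B went from 2 to between 0 and 7.

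Reversed were Mki67 between skip1 and skip2 induced (-0.12), at 1.12 with depth, 0.026 without skip1 induced replicate 2 and 0.16 without skip1 induced replicates 1 and 2 together, and from -0.45 to 0.21 over libraries left out, and Top2a there, at 0.36 with depth. With depth, skip2 against dN90 induced gave -0.71 for Mki67 and -0.14 for Top2a. For skip1 alone against wild type, Mki67 gave 0.092 with depth and -0.88 to 0.37 leaving out libraries, and Top2a -0.0169 with a pseudocount of 0.5 and -0.46 to 0.62 leaving out libraries. For skip2 alone, Mki67 gave -0.004224 to 0.85. For the difference between the skip1 and skip2 changes, Mki67 gave -0.060 to 1.18 leaving out libraries, and Top2a -0.14 with a pseudocount of 5, -0.14 with array weights and -0.32 to 0.76 leaving out libraries. Rrm2 between subtypes gave 0.047 with array weights.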
